A study of Mus musculus with 14 samples.

Results

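Dbp, Per1, Arntl and Nr1d1 are genes of the circadian clock, and their transcript ends were followed in 14 mouse 3P-seq libraries. They were found as the poly(A) sites inside 4 fixed mm9 windows: chr7:52958000-52967000 on the plus strand (Dbp), chr11:68907000-68925000 on the plus strand (Per1), chr7:120350000-120460000 on the plus strand (Arntl) and chr11:98627500-98638000 on the minus strand (Nr1d1). The windows held 26 of the 159969 sites of the series: 5 for Dbp, 6 for Per1, 4 for Arntl and 11 for Nr1d1. 3P-seq sequences the ends of polyadenylated transcripts, so each tag marks where a transcript was cleaved and given its poly(A) tail, whatever its length. One wild-type and 1 miR-22 knockout library came from each of 6 organs or tissues (kidney, liver, heart, lung, muscle and white adipose tissue), all labelled with the genetic background 129S5/SvEvBrd. Embryonic stem cells (mESC) and the fibroblast line 3T3 gave 1 library each, with the same background label and no genotype label. No group was replicated, and the labels give neither the age of the mice, nor the time of day at harvest, nor which tissues came from 1 animal. A genotype difference and a difference in time of harvest therefore cannot be told apart in any tissue.

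The clock runs on a loop of transcription. Arntl encodes BMAL1, which with CLOCK binds E-box elements and activates Per1, Nr1d1 and Dbp. The Per1 protein (PER1) represses that activation, REV-ERBα, the product of Nr1d1, represses Arntl through ROR elements, and DBP drives output genes through D-box elements. In mouse organs the transcripts of Dbp, Nr1d1 and Per1 rise and fall within the day, and Arntl cycles out of phase with them.

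The sequences that define the study and both arms of that loop are the deleted microRNA and the promoters of Per1 and Arntl. They are taken from RefSeq (GRCm38.p6, a later build than the mm9 of the sites), in which 4 of 4 members had an entry. The first shows its seed, bases 2 to 8, in capitals. The second, chr11:69098699-69098998 (+), shows an E-box (CACGTG) in capitals. The last, chr7:113207261-113207560 (+), shows the core of a ROR element (TAGGTCA) in capitals.
mmu-miR-22-3p: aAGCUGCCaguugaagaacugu
Per1 promoter: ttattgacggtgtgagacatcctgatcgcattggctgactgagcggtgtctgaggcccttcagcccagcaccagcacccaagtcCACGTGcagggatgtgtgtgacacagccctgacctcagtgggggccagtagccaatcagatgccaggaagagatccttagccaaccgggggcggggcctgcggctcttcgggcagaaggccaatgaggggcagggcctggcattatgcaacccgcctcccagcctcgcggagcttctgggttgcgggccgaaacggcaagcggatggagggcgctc
Arntl promoter: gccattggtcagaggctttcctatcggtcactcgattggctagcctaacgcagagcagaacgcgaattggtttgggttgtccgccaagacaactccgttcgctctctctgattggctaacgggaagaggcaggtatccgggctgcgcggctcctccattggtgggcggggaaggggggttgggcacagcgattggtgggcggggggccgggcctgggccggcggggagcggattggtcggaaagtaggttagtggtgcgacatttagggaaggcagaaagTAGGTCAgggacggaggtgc
Each promoter entry runs from 250 bases before to 50 after a start site. On either strand, CACGTG was in 7.15% of 32851 promoter entries of that length, TAGGTCA in 2.61%, and the D-box TTANGTAA in 2.32%. Per1 and Arntl have 2 entries each, of which 1 held the motif shown. The single entries of Dbp and Nr1d1 held none of the 3 motifs. A match describes the letters and is not a measured binding site.

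The libraries held between 2036838 and 6010465 tags. The 4 windows together were sparse parts of them: 6728 tags over the 14 libraries for Nr1d1, 3817 for Dbp, 1071 for Per1 and 111 for Arntl. Levels are given as CPM, tag counts brought to a common library size by the TMM method, and intervals are 95% intervals that cover counting error only. All 12 tissue libraries were closest in rank correlation to the other library of their tissue. Marker genes and the targeted miR-22 locus were not located, because the annotation given is of another build, and the mature microRNA carries no poly(A) tail to count.

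Transcripts of 3 of the 4 genes ended mainly at 1 site. For Dbp this was chromosome 7, 52965422 to 52965593, with 86.0% of the window's tags. A site 131 nt upstream held 7.39%. The last of note, 5545 nt upstream, held 6.16%. That distance is more than the 5104 nt that RefSeq gives as the span of Dbp, and to which transcript its tags belong was not tested. Without that site and a small one of 9 tags, both beyond the span, the fitted genotype difference of Dbp was -0.39 on the log2 scale in place of -0.36, an alternative added after the values were seen. For Nr1d1 the main site at chromosome 11, 98629246 to 98629342, held 87.6%, and a site 157 nt upstream 10.5%. For Per1 the main site at chromosome 11, 68923426 to 68923464, held 71.7%, and a site 1519 nt downstream 20.7%. Arntl ended at neighbouring sites 81 nt apart, at chromosome 7, 120457521 to 120457604 and 120457609 to 120457643, with 46.8% and 48.6% of its 111 tags. These Arntl intervals nearly touch, and merging intervals up to 50 nt apart joins them into a single site. Whether a site belongs to the named gene rests on the window alone.

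Per1, which encodes a repressor of the loop, was above its wild-type level in the knockout of 6 of 6 tissues. It went from 6.34 to 15.8 CPM in heart, from 6.34 to 11.1 in muscle and from 7.12 to 16.6 in liver. It went from 25.2 to 43.9 CPM in lung, from 10.3 to 21.4 in adipose tissue and from 3.78 to 9.16 in kidney. Within each tissue the knockout library was above the wild-type one, although the ranges of the genotypes overlap across tissues, with lung the highest in both. The ratio of knockout to wild type was 2.5 in heart (1.36 to 4.91), 2.42 in kidney (1.3 to 4.7) and 2.33 in liver (1.43 to 3.89). It was 2.07 in adipose tissue (1.31 to 3.31), 1.75 in muscle (0.813 to 3.84) and 1.74 in lung (1.46 to 2.1). The interval excluded 1 in 5 of 6 tissues, with muscle, at 14 and 17 tags, the exception. The mean log2 ratio was 1.08 ± 0.231 (SD, n = 6 tissues), an SD below the 0.691 to 0.947 of the other 3 genes. The exact two-sided sign-flip permutation p was 0.031, the smallest that 6 tissues allow. One such test was made for each of the 4 genes. The test treats the tissues as independent, and the labels do not say which came from 1 animal. Of features at 5 CPM or more, the share at least 2-fold higher in knockout was 12.9% in adipose tissue, 10.1% in heart, 9.47% in lung, 7.93% in kidney, 6.31% in liver and 6.2% in muscle, and Per1 was past that fold in 4 of the 6.

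In the model across all features, the fitted log2 difference of Per1 was 1.07 with a standard error of 0.291 and an unadjusted p of 0.000515. Its edgeR adjusted p over 23853 features was 0.104, which misses the 0.05 threshold. Scaling by total tags gave 1.25 with an edgeR adjusted p of 0.0205, and DESeq2 gave 1.06 with an adjusted p of 0.00653, so the call depends on scaling and tool. Over the alternatives the adjusted p ran from 0.00653 (DESeq2) to 1.00 (edgeR with no term for tissue). As background, 0.34% of features passed the adjusted threshold, 0.273% as higher and 0.0671% as lower in knockout, and 6.96% had an unadjusted p under 0.05. By direction alone, 1.56% were higher in knockout in 6 of 6 tissues and 9.54% in at least 5, while 1.76% were lower in 6 of 6. None of the 4 clock genes passed the edgeR threshold, 1 of 4 (Per1) had an unadjusted p under 0.05, and DESeq2 called Per1 alone of the 3 for which it gave an adjusted p. Of the 12292 features with a DESeq2 adjusted p, 0.293% were called higher and 0.203% lower in knockout.

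Dbp, whose product is an output factor of the clock, differed in direction between tissues. In heart it was 203 CPM in wild type and 79.5 in knockout, and in muscle 222 and 111. Liver had 55.6 CPM in wild type and 46.0 in knockout, and lung 47.6 and 33.7. Kidney had 68.8 CPM in wild type and 95.7 in knockout, and adipose tissue 120 and 169. Thus 4 tissues had the lower value in knockout and 2 the higher. The knockout library was 2.56-fold lower in heart (2.18 to 3.00) and 2-fold lower in muscle (1.68 to 2.4). It was 1.41-fold lower in lung (1.21 to 1.65), and in liver the interval of the ratio, 0.663 to 1.03, included 1. It was 1.4-fold higher in adipose tissue (1.22 to 1.62) and 1.39-fold higher in kidney (1.19 to 1.63). Of features at 5 CPM or more, 10.8% were at least 2-fold lower in knockout heart, 10.5% in muscle and 6.12% in lung. The mean log2 ratio over tissues was -0.36 ± 0.754 (SD, n = 6; exact sign-flip permutation p = 0.281), and the edgeR adjusted p was 0.905.

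Nr1d1, which encodes the repressor REV-ERBα, was lower in knockout in 5 tissues and higher in 1 with TMM scaling, while heart and muscle each changed direction under 1 other scaling. In heart it was 100.9 CPM in wild type and 73.9 in knockout, in muscle 354 and 295, and in liver 201 and 89.1. In lung it was 120 and 78.2 CPM and in kidney 50.1 and 28.0. In adipose tissue, in contrast, it was 203 CPM in wild type and 581 in knockout, the highest value of any library for this gene. The lowest ratios were in liver, 2.25-fold lower (1.96 to 2.6), and in kidney, 1.79-fold lower (1.41 to 2.28). Knockout adipose tissue was 2.86-fold higher (2.61 to 3.15). Of features at 5 CPM or more, 5.6% were 2-fold lower in knockout liver and 12.9% 2-fold higher in knockout adipose tissue. The mean log2 ratio was -0.30 ± 0.947 (SD, n = 6; exact sign-flip permutation p = 0.469), with an edgeR adjusted p of 0.926. The mean level itself was higher in knockout, 191 ± 213 CPM against 171 ± 107 (SD, n = 6). In the edgeR fits that left out 1 tissue pair in turn, the log2 difference ran from -0.66 without adipose tissue (adjusted p = 0.459) to -0.14 without liver (adjusted p = 0.996). The smaller differences in heart and muscle, log2 -0.45 and -0.26, depended on scaling: by tags outside the mitochondrial genome heart was 0.049, and by total tags muscle was 0.016. Mitochondrial tags were 22.6% of the library in wild-type heart and 31.3% in knockout heart.

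Arntl, whose product BMAL1 activates the other 3 genes, was near the limit of these libraries, at 2 to 20 tags per tissue library. Lung held 12 tags in wild type and 20 in knockout, liver 12 and 9, kidney 9 and 3, muscle 8 and 2, adipose tissue 6 and 2, and heart 4 and 3. The knockout value was lower in 5 of 6 tissues after scaling, but the interval excluded 1 in none of the 6. In lung, where Arntl had its highest tag count, the ratio was 1.17 (0.546 to 2.63). The mean log2 ratio was -0.82 ± 0.691 (SD, n = 6; exact sign-flip permutation p = 0.0938), the edgeR adjusted p was 0.877, and DESeq2 gave no adjusted p. The interval excluded a 2-fold rise in muscle (up to 1.81) and kidney (up to 1.52) and a 2-fold fall in lung, and included 2-fold differences in the other directions and tissues. Of all features, 10.4% were lower in knockout in at least 5 of 6 tissues.

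**Figure D1:**
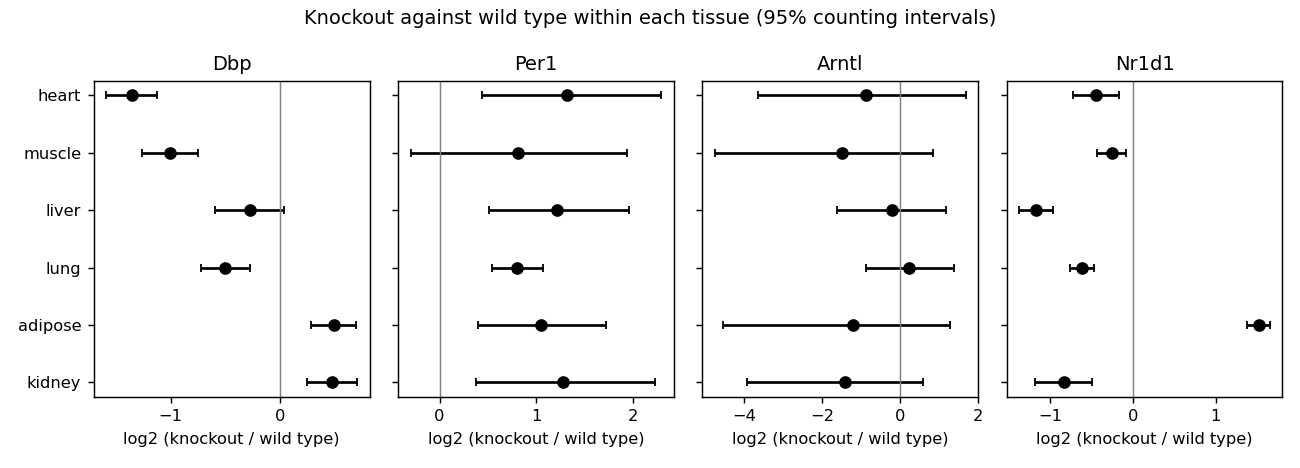
Log2 ratio of the knockout to the wild-type library within each tissue (x axis, TMM-scaled; each panel has its own range) for the 4 genes, with 95% counting intervals as bars; there is 1 library per point and genotype. All 6 Per1 points lie right of 0, those of Dbp lie on both sides, Nr1d1 has only adipose tissue on the right under this scaling (heart or muscle crosses 0 under others), and the Arntl bars all cross 0.

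Set side by side within a tissue, the 3 targets of the activator differed in direction. In heart, muscle, liver and lung, Per1 was higher and Dbp and Nr1d1 lower in the knockout library with TMM scaling. Nr1d1 turned to log2 0.049 in heart when scaled by tags outside the mitochondrial genome, and to 0.016 in muscle by total tags. In adipose tissue all 3 were higher. In kidney Per1 and Dbp were higher and Nr1d1 lower. Over the 6 tissues the log2 ratios of Dbp and Nr1d1 had a Pearson r of 0.33, those of Per1 and Dbp 0.14 and those of Per1 and Nr1d1 -0.22. These are descriptions over 6 points, and the genes of a tissue share their libraries and their scaling.

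By tissue, Dbp was highest in muscle (167 ± 78.6 CPM, SD, n = 2), then adipose tissue (145 ± 34.4), heart (141 ± 87.5) and kidney (82.2 ± 19.0), and lowest in liver (50.8 ± 6.82) and lung (40.6 ± 9.82). Neighbours in this order overlapped in their libraries, except kidney and liver. A tissue was called against the mean of the other 5 at an edgeR adjusted p under 0.05 and 2-fold. Lung was called lower, with a log2 difference of -1.41 (standard error 0.412, edgeR adjusted p = 0.00436), and liver lower, with -1.01 (edgeR adjusted p = 0.0409). Of all features, 12.3% were called lower in lung, 15.5% in liver, 12.2% in muscle, 9.29% in kidney, 7.59% in adipose tissue and 6.25% in heart. Called higher were 24.4% in lung, 21.5% in liver, 21.4% in kidney, 15.9% in heart, 15.8% in adipose tissue and 15.6% in muscle. Neither Dbp call was stable. The liver call was lost on leaving out any 1 of 8 libraries (wild-type heart, muscle, liver and lung; knockout liver, lung, adipose tissue and kidney; edgeR adjusted p from 0.0486, with the fold then under 2, to 0.312), and the lung call without knockout lung (edgeR adjusted p = 0.0966) and under scaling by total tags (log2 -0.61, edgeR adjusted p = 0.191). Muscle, with a log2 difference of 1.00 and an edgeR adjusted p of 0.0243, lay just under the 2-fold limit. It was called by DESeq2 (log2 1.06) and on leaving out any 1 of 6 libraries (wild-type heart and lung; knockout muscle, liver, adipose tissue and kidney). Under scaling by total tags muscle was 0.15 (edgeR adjusted p = 0.856), and adipose tissue was called higher in its place (log2 1.14, edgeR adjusted p = 0.00804). Adipose tissue, 0.86 on the log2 scale in the fit as designed and not called, was also called without its wild-type library (1.27). Liver, at -0.98, was not called by DESeq2. With no filter on low counts, 0 tissues were called for Dbp.

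Per1 was highest in lung, at 34.6 ± 13.3 CPM, where both libraries lay above the other 10, which reached at most 21.4 CPM. Lung was 1.79 higher on the log2 scale than the mean of the other tissues (standard error 0.322, edgeR adjusted p = 6.23e-06). Adipose tissue (15.9 ± 7.84 CPM), liver (11.9 ± 6.7), heart (11.1 ± 6.72), muscle (8.72 ± 3.37) and kidney (6.47 ± 3.8) followed, each overlapping its neighbour. Kidney was called lower, with -1.19 (edgeR adjusted p = 0.023), but not on leaving out its wild-type or its knockout library (edgeR adjusted p = 0.258 and 0.189). Under scaling by total tags kidney was -0.82 and not called, and muscle was called lower in its place (log2 -1.44).

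Nr1d1 had the widest range between tissues. Adipose tissue (392 ± 267 CPM) and muscle (325 ± 41.4) were highest, followed by liver (145 ± 79.0), lung (99.1 ± 29.5), heart (87.4 ± 19.1) and kidney (39.1 ± 15.6). Muscle and liver were apart, as were heart and kidney, and the other neighbours overlapped. Kidney was called lower, with a log2 difference of -2.19 (standard error 0.448, edgeR adjusted p = 6.34e-05), with both libraries below the other 10, whose lowest was 73.9 CPM. Adipose tissue was higher by 1.95 (edgeR adjusted p = 1.0e-05) and muscle by 1.51 (edgeR adjusted p = 0.000321). The adipose call rested on the knockout library and was lost without it (log2 0.57, edgeR adjusted p = 0.557). Under scaling by total tags muscle was 0.67 and not called, and heart was called lower.

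Arntl was called in 0 of 6 tissues by edgeR and by DESeq2. Its unadjusted edgeR p was under 0.05 in 0 of 6, the lowest being 0.0895 in liver. Its means ran from 1.35 ± 0.747 CPM in adipose tissue to 3.08 ± 0.293 in liver, and every tissue overlapped the next. This order depends on scaling. By total tags lung had the highest log2 difference, 0.90 (edgeR adjusted p = 0.0897), then liver, 0.73, and again 0 tissues were called.

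In the cultured cells Dbp and Nr1d1 were below all tissue libraries, while Per1 was within their range. Dbp had 3.14 CPM in mESC (10 tags; 1.51 to 5.77) and 5.46 in 3T3 (21 tags; 3.38 to 8.34), where the lowest of the 12 tissue libraries had 33.7. Of those tags, 3 of 10 and 11 of 21 were at the main Dbp site, and 6 and 10 at the one 5545 nt upstream. Nr1d1 had 2.2 CPM in mESC (7 tags; 0.884 to 4.53) and 22.4 in 3T3 (86 tags; 17.9 to 27.6), against a lowest tissue value of 28.0. Per1 had 41.1 CPM in mESC (34.4 to 48.8), within the range of the lung libraries, and 10.1 in 3T3 (7.21 to 13.9). Arntl had 4.08 CPM in mESC (2.17 to 6.98) and 2.08 in 3T3 (0.898 to 4.1). With 1 library each, these values have no replicate check.

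**Figure D2:**
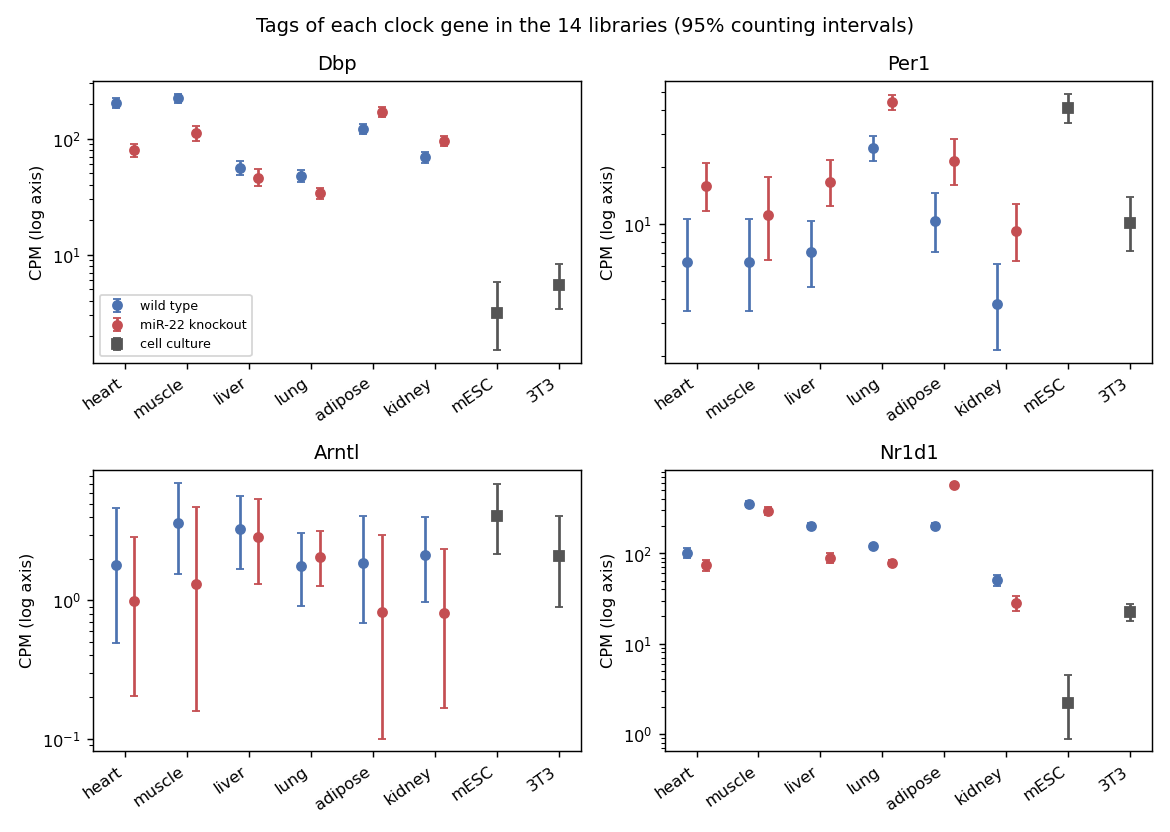
Level of each clock gene in the 14 libraries, in TMM-scaled CPM (y axis, log scale), by tissue or cell type (x axis); blue is wild type, red miR-22 knockout and grey cultured cells, and bars are 95% counting intervals. Per1 is higher in knockout in every tissue, and Dbp and Nr1d1 are below all tissues in mESC and 3T3.

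The site used also differed between the Dbp libraries. The site 131 nt upstream of the main one took a larger share of the tags of that pair in knockout in 6 of 6 tissues. Kidney had the highest shares, 10.3% in wild type and 17.8% in knockout. The wild-type and knockout shares were 5.79% and 12.6% for liver, 4.33% and 10.7% for heart, and 4.26% and 9.79% for muscle. They were 4.13% and 8.72% for adipose tissue and 5.28% and 7.64% for lung. Wild-type kidney lay within the knockout range, and the other 5 wild-type libraries below it. The mean difference was 5.53 ± 1.85 percentage points (SD, n = 6), on 11 to 61 proximal tags per library. Among 1663 neighbouring site pairs of the series, 1.74% moved toward the proximal site in 6 of 6 tissues and 2.47% toward the distal one. This pair was singled out after its values were seen, so its difference is a description with no test. Over the whole window, the main site's share was a mean of 89.1% in wild type and 81.5% in knockout, lower in 6 of 6 tissues (exact sign-flip permutation p = 0.031, the smallest possible, in 1 of 4 such tests). That window includes the site 5545 nt upstream, beyond the span of Dbp. Its share of the window was 3.46% in wild-type and 14.1% in knockout muscle. That share was also higher in knockout heart and lung, and lower in knockout liver, adipose tissue and kidney. Merging intervals up to 50 nt apart joins the main site and the one 131 nt upstream. The difference in main-site share was then -2.63 points (exact sign-flip permutation p = 0.25). The main-site share differed by 11.2 points ± 34.4 for Arntl (SD, n = 6; exact sign-flip permutation p = 0.5) and by 0.926 points ± 6.50 for Nr1d1 (p = 0.75 by the same exact test), each with 3 tissues higher and 3 lower in knockout. As features of their own, neither Dbp site passed: the proximal one had a log2 difference of 0.63 (edgeR adjusted p = 0.666) and the main one -0.49 (edgeR adjusted p = 0.809).

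In the corresponding Nr1d1 pair the proximal share was higher in knockout in 2 of 6 tissues, with a proximal share of 12.5% ± 3.56 in wild type and 11.5% ± 5.48 in knockout (SD, n = 6). It was lowest in knockout adipose tissue, at 5.41%, and highest in knockout kidney, at 18.6%. That share was computed from 76 proximal tags in the first and 18 in the second. Merging intervals up to 50 nt apart joins this Nr1d1 pair as well. The difference in main-site share of Nr1d1 was then -0.36 points. The Per1 site 1519 nt downstream carried 36 of 171 tags in wild-type lung (21.1%) and 140 of 424 in knockout lung (33.0%). In adipose tissue and kidney its share was lower in knockout, from 27.3% in wild type to 17.3% and from 31.2% to 14.7%, on 5 to 9 tags. Heart, muscle and liver, on 0 to 5 tags, had the higher share in knockout. In mESC 130 of 131 Per1 tags were at the main site, and in 3T3 38 of 39. The main-site share of Per1 had a difference between genotypes within the spread of the tissues (mean 2.35 points ± 15.4, SD, n = 6; exact sign-flip permutation p = 0.75). Of these Per1 sites, the main one had a log2 difference of 1.12 (edgeR adjusted p = 0.0906) and the downstream one 1.22 (edgeR adjusted p = 0.266).

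**Figure D3:**
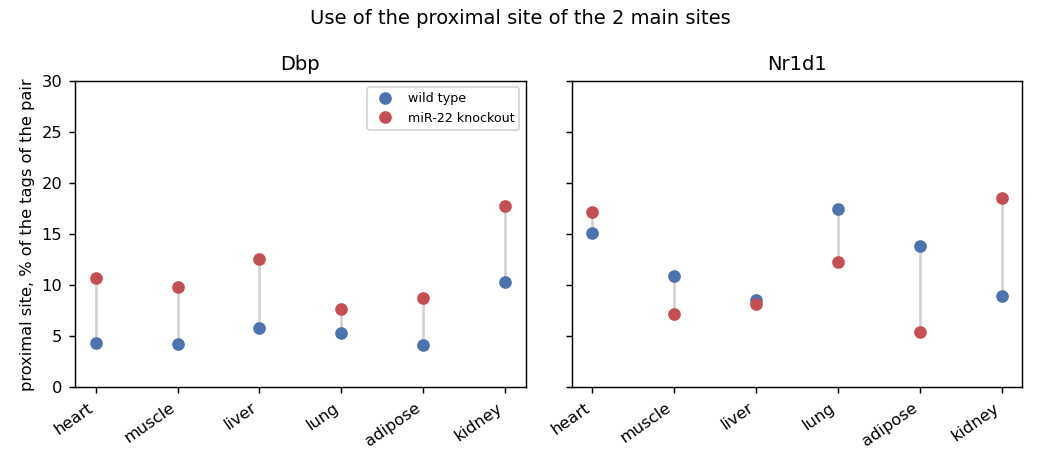
Share of the tags of the 2 main sites that lay at the proximal one (y axis, percent) in each tissue (x axis) for Dbp and Nr1d1; blue is wild type, red miR-22 knockout, 1 library per point, with grey lines joining the 2 libraries of a tissue. For Dbp the red point is above the blue one in 6 of 6 tissues; for Nr1d1 it is above in 2.

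The sites most like each gene in level over the 14 libraries were sought among all features of at least 5 CPM, by Pearson's r of log2(CPM + 1). For Dbp the closest was chromosome 10, 128356974 to 128357018 (-), with r = 0.97, and for Nr1d1 chromosome 19, 9151370 to 9151426 (+), with r = 0.94. The next for Dbp was on the mitochondrial genome, 11019 to 11543 (+), with r = 0.97, and then chromosome 2, 120287366 to 120287434 (+), also 0.97. For Nr1d1 they were chromosome 10, 80655659 to 80655748 (+), and chromosome 7, 3611682 to 3611759 (-), both with r = 0.92. For Per1 it was chromosome 2, 156836177 to 156836228 (-), with r = 0.85, and for Arntl chromosome 11, 83108577 to 83108609 (-), with r = 0.85. The next for Per1 had r = 0.85 (chromosome 9, 119835669 to 119835702, +) and 0.80 (chromosome 4, 43277678 to 43277744, +). Those for Arntl had r = 0.85 (chromosome 10, 59361906 to 59362042, +) and 0.81 (chromosome 1, 130175915 to 130175950, +). Of the genes studied here, none was among the 3 closest of another, but Arntl, at a mean under 5 CPM, could not be listed. Whether a listed site belongs to some other clock gene was not tested. Levels of Dbp and Nr1d1 had an r of 0.81 over the 14 libraries, which include the cell lines, where both are low.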

How the data were processed

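Tags of 12 tissue and 2 cell libraries were grouped by tissue and genotype. CASAVA 1.7 and Bowtie are the tools named, and mm9 the build, per the submitters' processing notes; 13 of the 14 file headers also name mm9. The step from reads to sites is not described. The authors deposited unscaled estimated counts of tags per site, of which 1.21% to 5.79% per library are not whole.

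Overlapping or touching intervals of 1 strand were joined across the 14 libraries, and their values rounded. The sites of each window were summed and fitted with all other sites as features (R 4.3.3, edgeR 4.0.16): filterByExpr with a minimum count of 10, TMM, a quasi-likelihood model with terms for tissue and genotype, and Benjamini-Hochberg adjustment over 23853 features. All 4 members passed the filter; Arntl did so on a few tags. Standard errors are the fitted difference over the root of F. Both genotypes of a tissue stood in as replicates of that tissue, so p-values measure the spread between libraries and tissues, not animals. Cell lines were scaled against the same reference library. Within a tissue 1 library met 1, so ratios carry exact binomial 95% intervals and levels exact Poisson ones; these cover counting error alone, and the labels name no molecular identifiers, so tags may not be independent molecules. Site pairs lay 100 to 5000 nt apart, with 20 tags in every tissue library, 60 tags per site over them and 5% at the lesser site. Named were the 4 members, their sites of at least 5% of tags and the 3 sites most alike. The members, motifs and lists were chosen with earlier results of these data known. Steps were tested on simulated data. Alternatives were DESeq2 1.42.0, other scalings, no filter, no tissue term, the main site alone, wider merging and leaving out libraries. Other clock genes were not analysed here, since no mm9 annotation was used.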

Additional observations from a re-analysis of the deposited data

Results flagged for a closer look

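The ratio of knockout to wild type for Nr1d1 in adipose tissue stood apart from the other 5 tissues. Its log2 value was 1.52, against -1.17 to -0.26 elsewhere, and its gap to the nearest tissue was 0.661 of the whole range, above Dixon's critical value for 6 values. Chance flags about 1 in 20 such groups, and 8 were examined here. In the same pair of libraries Dbp was higher by 0.49 and Per1 by 1.05 on the log2 scale. Neither was particular to adipose tissue. Per1 was higher in knockout in all 6 tissues (0.80 to 1.32). Dbp was also higher by 0.48 in kidney, where Nr1d1 was lower.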

How the results depend on the processing

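The genotype difference of Per1 passed the threshold under 3 alternatives: DESeq2 (log2 1.06, adjusted p = 0.00653), scaling by total tags (1.25, edgeR adjusted p = 0.0205) and by tags outside the mitochondrial genome (1.25, edgeR adjusted p = 0.0211). Without each tissue pair in turn it ran from 1.02 to 1.16 and was not called. Its sign-flip mean then ran from 1.03 to 1.14, at p = 0.0625, the smallest exact permutation p of 5 tissues, an alternative chosen after seeing the data. For Nr1d1 the log2 difference turned to 0.15 with no term for tissue, and in all other fits stayed below 0 and uncalled. Dbp and Arntl stayed below 0 and uncalled in all fits. Total-tag scaling added a constant to the within-tissue log2 ratios, the same for every gene of a tissue. It is set by how the TMM-scaled sizes of the paired libraries depart from their total tags. The constant was 0.33 (heart), 0.28 (muscle), 0.22 (kidney), 0.12 (lung), 0.11 (liver) and 0.091 (adipose tissue). This scaling took Dbp to -1.03 in heart and -0.72 in muscle, and Nr1d1 to -0.12 in heart and 0.016 in muscle. Scaling by tags outside the mitochondrial genome gave Dbp -0.85 in heart, and Nr1d1 0.049 in heart and -0.021 in muscle. The main site alone gave Dbp -1.27 in muscle and Nr1d1 1.66 in adipose tissue. With no filter on low counts, 0 tissues were called for Dbp and 1 for Per1. Leaving out 1 library gave 0 to 3 tissues for Dbp, 1 to 2 for Per1 and 2 to 3 for Nr1d1. Merging sites up to 50 nt apart changed the main-site share between genotypes to -2.63 points for Dbp (exact permutation p = 0.25), -1.94 for Arntl and -0.36 for Nr1d1. Beyond what each alternative changes by construction, the cause was not tested. Arntl is limited by its 2 to 20 tags per tissue library, and a ratio for its main site alone could not be given where a library had 0 tags. No replicate numbers are given in the labels; wild type and knockout were paired by tissue.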
